A study of Mus musculus with 31 samples.

Results

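The subunits of the mitochondrial respiratory chain were followed across liver, kidney and blood leukocytes of mice injected with LPS, the endotoxin of Gram-negative bacteria. The members are all probes whose annotated symbol begins with Ndufa, Ndufb, Ndufc, Ndufs or Ndufv and a number, is Sdha, Sdhb, Sdhc or Sdhd, begins with Uqcr, or begins with Cox4, Cox5, Cox6 or Cox7. The rule matched 77 of 25697 probes, and they carry 60 of the 16593 gene symbols on the array. Complexes were assigned from the start of the symbol alone, so every Nduf symbol, Ndufa4 among them, was counted in complex I. Complex I had 44 probes for 34 symbols, complex II had 6 for 3, complex III had 9 for 8, and complex IV had 18 for 15. A single probe stood for 47 symbols, and Ndufs4 had the most, with 4. The symbol Ndufs5-ps, a pseudogene of Ndufs5, also matched the rule and was kept.

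Mice were C57BL/6J males of 20 to 30 weeks, and every mouse received LPS, so no group shows the tissue without endotoxin. Vehicle, IVIg (pooled human immunoglobulin for intravenous use) or modIVIg, a modified IVIg whose change the labels do not describe, was given with the LPS. Each of the 3 treatments had 4 liver arrays. The kidney arrays numbered 3 for vehicle and 4 each for IVIg and modIVIg. The blood arrays numbered 3 for vehicle, 3 for IVIg and 2 for modIVIg. Blood modIVIg replicate 2 was left out by the rule, so 30 of 31 arrays were used and blood modIVIg rests on 1 array. Nothing in the labels says that the arrays of a group come from separate mice, so p-values measure the spread between these samples, which may be technical. Precision is limited by these array numbers.

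The respiratory chain lies in the inner mitochondrial membrane and passes electrons from NADH and succinate to oxygen. Complex I (NADH dehydrogenase) takes electrons from NADH and complex II (succinate dehydrogenase) from succinate, an intermediate of the tricarboxylic acid (TCA) cycle. Complex III (cytochrome bc1) hands them through cytochrome c to complex IV (cytochrome c oxidase), and complexes I, III and IV pump the protons that drive ATP synthase. Kidney tubule cells and hepatocytes are rich in mitochondria, neutrophils rely largely on glycolysis, and mature red cells have no mitochondria. Several complex IV subunits come in isoforms that differ between tissues.

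On the usable arrays a probe counted as detected at a detection p under 0.01, the scanner software's comparison with background. Liver arrays detected 31.6% to 35.3% of all probes and kidney arrays 34.8% to 41.2%. Blood arrays detected fewer, 8.09% to 18.7%. The defining markers followed the labelled tissue. The summed bead signal of 10 hepatocyte probes reached 216000 to 253000 on liver arrays. On kidney arrays it was 5610 to 22300, and on blood arrays 239 to 279. The sum of 8 proximal tubule probes was 112000 to 156000 in kidney. Of 10 leukocyte probes 8 were kept in blood, with sums of 6800 to 17300 against 1520 to 4010 in liver. The blood arrays also carried the 3 red cell probes at 125000 to 159000, against 8390 to 18400 in liver and 15700 to 29300 in kidney. These are bulk samples, so fewer cells of a type and less RNA per cell cannot be told apart.

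Most members were measured. After a filter on detection, 64 members were kept in liver, 66 in kidney and 55 in blood, and 53 in all 3 organs. Of the 10 kept in none, 9 were detected on no usable array. These 9 are Ndufs1, which carries iron-sulfur clusters, and a probe of Ndufb11 (ILMN_2747885) in complex I, ILMN_2592389 for Sdhb and ILMN_1256125 for Sdhc in complex II, Uqcrfs1, the Rieske iron-sulfur protein, and Uqcrq in complex III, and Cox4i2, Cox7b2 and ILMN_1229627 for Cox6b2 in complex IV. Other probes of Sdhb, Sdhc and Cox6b2 were detected. Members kept in liver and kidney and not in blood numbered 11. The reverse case was 1 probe, Cox6b2 ILMN_2764551.

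In kidney, 9 members were far dimmer on the arrays of replicates 3 and 4 than on those of replicates 1 and 2. The rule marks a probe as technical where the mean normalised log2 signal of replicates 3 and 4 is over 3 below that of replicates 1 and 2, whatever the treatment. This difference chose the marked members, so it is a description with no test. The marked members were the complex I accessory subunits Ndufb2, Ndufb4, Ndufb5, Ndufb9 and Ndufa5 (ILMN_2691460), the complex I iron-sulfur fraction subunit Ndufs4 (ILMN_2663694), the membrane anchor Sdhd of complex II, Uqcrb of complex III and Cox7b of complex IV. Of the members kept in kidney, 6 of 41 were marked in complex I, 1 of 4 in complex II, 1 of 7 in complex III and 1 of 14 in complex IV. Over the array, 325 probes were below the threshold, 1.26% of all probes and 2.95% of the 11010 kept in kidney, and 0 probes (0%) lay as far above it.

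Sdhd showed the widest step. Its log2 signal on kidney arrays was 11.36, 11.52 and 5.72 with vehicle, 11.09, 11.11, 5.97 and 5.46 with IVIg, and 11.22, 11.63, 6.47 and 5.87 with modIVIg, in the order of replicates 1 to 4. The arrays of replicates 1 and 2 were high and those of replicates 3 and 4 low in each treatment group, with no overlap. The difference was -5.43 for Sdhd, and Sdhd was detected on 6 of 11 kidney arrays.

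Ndufa5 (ILMN_2691460) read 10.89, 10.90 and 5.40 with vehicle, 10.52, 10.81, 5.47 and 5.83 with IVIg, and 10.78, 10.93, 5.04 and 5.33 with modIVIg. The other probe of Ndufa5, ILMN_1216007, read 12.19, 12.14 and 12.39 with vehicle, 12.10, 11.95, 12.47 and 12.29 with IVIg, and 12.25, 12.08, 12.35 and 12.10 with modIVIg. The probes of 1 gene therefore split, at -5.39 for the marked one and 0.20 for the other. Ndufs4 split in the same way over 4 probes, at -3.19 (ILMN_2663694), -1.45 (ILMN_2900025), -1.15 (ILMN_2640944) and 0.30 (ILMN_1234521). Where in the transcript each probe binds was not analysed here.

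Ndufb9 read 11.79, 11.69 and 7.22 with vehicle on the kidney arrays, 11.39, 11.75, 6.66 and 7.17 with IVIg, and 11.98, 11.91, 6.80 and 6.70 with modIVIg. Uqcrb read 12.52, 12.52 and 9.26 with vehicle, 12.57, 12.54, 9.40 and 9.27 with IVIg, and 12.70, 12.49, 9.45 and 9.59 with modIVIg. Both were high on replicates 1 and 2 and low on replicates 3 and 4 in all 3 groups, and Uqcrb stayed well above background on every kidney array.

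The differences of the others were -4.90 for Ndufb4, -4.84 for Ndufb9, -4.48 for Cox7b, -3.75 for Ndufb2 and -3.54 for Ndufb5. The members just inside the threshold were Uqcrb at -3.16, Ndufs4 (ILMN_2663694) at -3.19 and Ndufb5 at -3.54. Just outside lay Cox7a2 at -2.58, Ndufb10 at -1.83 and Cox6c at -1.75. The 57 kept members without the mark ran from -2.58 to 0.47 with a median of 0.19, near the 0.24 of all kept kidney probes.

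**Figure D1:**
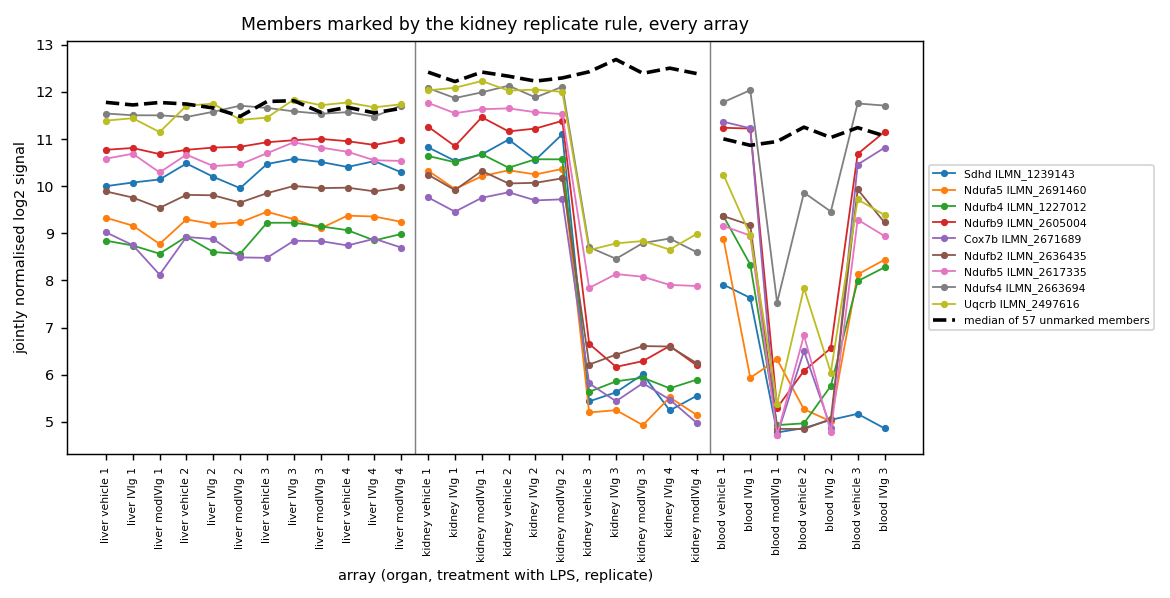
Log2 bead signal (all usable arrays normalised together, y axis) of the 9 marked members on each of the 30 arrays (x axis). Arrays are grouped by organ and then by replicate number, with the treatments side by side. The median of the 57 unmarked members is a dashed line. The marked members are low on kidney replicates 3 and 4 of each treatment and high on all 12 liver arrays, while the dashed line shows no such step between kidney replicates.

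The liver arrays, which the rule did not use, showed no such step. The difference of replicates 3 and 4 from replicates 1 and 2 in liver was 0.04 to 0.40 for the 9 marked members, with a median of 0.20, and all 9 were detected on every liver array. In the authors' own normalised kidney values the 9 differences were -4.02 to -2.98. How many members carry the mark depends on the values used. It was 9 with the background-corrected values used here, 9 after scaling to the 75th percentile, 8 in the authors' values (without Ndufb2) and 6 after quantile normalisation with no background correction (Cox7b, Ndufa5, Ndufb4, Ndufb5, Ndufb9 and Sdhd).

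The blood arrays, also outside the rule, differed one by one in the marked members. Normalised within blood, Ndufs4 (ILMN_2663694) read 8.82, 6.46 and 8.79 on vehicle replicates 1 to 3, 9.16, 6.09 and 8.73 on IVIg replicates 1 to 3, and 5.05 on the modIVIg array. Cox7b read 8.26, 4.85 and 7.12 with vehicle, 8.09, 4.58 and 7.58 with IVIg, and 4.51 with modIVIg. Vehicle 2, IVIg 2 and modIVIg 1 were the low arrays for both.

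Of the 9 marked members, vehicle arrays 1 to 3 detected 8, 1 and 6, IVIg arrays 1 to 3 detected 3, 1 and 5, and the modIVIg array detected 0. Members detected in all on those 7 arrays numbered 56, 55, 54, 41, 48, 48 and 37, and the share of all probes detected was 17.8%, 18.7%, 13.2%, 11.1%, 16.3%, 14.2% and 8.09%. The low arrays thus included the one with most probes detected and the one with fewest. Whether the low values in blood and the step in kidney are related was not tested.

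The treatments were compared within each organ, to ask whether either immunoglobulin changed the chain's transcripts under LPS. A member was called when limma's Benjamini-Hochberg adjusted p over all kept probes of the organ was under 0.05. In all 7 comparisons of 2 treatments 0 members were called.

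In liver, modIVIg against vehicle called 407 of 9114 probes (4.47%) and 0 of 64 members, and 6 members had an unadjusted p under 0.05, where 23.4% of all probes did. The members' log2 changes ran from -0.54 to 0.08 with a median of -0.08, against a median of 0.04 over all probes, and 49 of 64 lay below 0. The median was -0.10 over the 40 probes of complex I, -0.21 over the 4 of complex II, -0.02 over the 7 of complex III and -0.03 over the 13 of complex IV. Adjusted p-values were 0.0849 and above.

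The members with the lowest statistics in liver are given although none passed. Ndufb7, an accessory subunit of complex I, read 7.39, 7.39, 7.47 and 7.26 with vehicle, 7.49, 6.97, 6.90 and 7.10 with IVIg, and 7.24, 6.83, 6.74 and 6.51 with modIVIg. The modIVIg arrays lay below all vehicle arrays and overlapped the IVIg arrays. The change of Ndufb7 was -0.54 ± 0.17 (SE, limma adjusted p = 0.0849).

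Sdhb, the iron-sulfur subunit of complex II, read 10.22, 10.62, 10.43 and 10.34 with vehicle on ILMN_2769064, 10.39, 10.41, 10.46 and 10.29 with IVIg, and 9.91, 10.08, 10.15 and 10.21 with modIVIg. All 4 modIVIg arrays lay below the vehicle and the IVIg arrays, by a narrow margin. The change was -0.31 ± 0.12 against vehicle (SE, limma adjusted p = 0.147) and -0.30 against IVIg (adjusted p = 0.244), and it was not called in either. On its other kept probe, ILMN_2769065, the vehicle arrays read 10.29, 10.65, 10.48 and 10.54 and the modIVIg arrays 10.09, 10.06, 10.31 and 10.32, and these groups overlapped.

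Cox7a1, the heart and muscle isoform of a small complex IV subunit, was detected on 2 of 4 vehicle arrays and on 0 of 4 modIVIg arrays in liver. The vehicle and modIVIg arrays overlapped in Cox7a1, and the change was not called (limma adjusted p = 0.185). The highest members in the same comparison were Uqcr10, a small subunit of complex III, at 0.08 and 0.07 on its probes and Ndufs4 (ILMN_2640944) at 0.08.

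One call in liver turned on the setting. With array quality weights, 3 of 64 members (4.69%) were called lower with modIVIg than with vehicle, where 14.3% of all probes were called. These were Ndufb10 (-0.59 ± 0.15, SE, limma adjusted p = 0.0236), Ndufb7 (-0.56 ± 0.15, adjusted p = 0.0259) and Cox7a1 (-0.55 ± 0.17, adjusted p = 0.0431). Without liver IVIg replicate 3, 1 member (1.56%, against 10.5% of all probes) was called, Ndufb10 at -0.52 ± 0.15 (SE, limma adjusted p = 0.0441). Ndufb10, an accessory subunit of complex I, read 9.54, 9.50, 9.71 and 9.93 with vehicle, 9.32, 9.14, 10.32 and 9.54 with IVIg, and 9.0, 9.01, 9.42 and 9.18 with modIVIg. Its modIVIg arrays lay below its vehicle arrays, and the IVIg arrays spread over both.

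IVIg against vehicle in liver called 0% of probes (1.72% with an unadjusted p under 0.05) and 0 members, also 0 at an unadjusted p under 0.05. The median of the members was -0.02, and the lowest was Ndufb7 at -0.26 ± 0.17 (SE, limma adjusted p = 1). ModIVIg against IVIg called 0.845% of probes (16.1% unadjusted) and 0 members, and 1 member had an unadjusted p under 0.05. There 47 of 64 members lay below 0 with a median of -0.06. The modIVIg comparisons share the modIVIg arrays, so they are not independent.

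**Figure D2:**
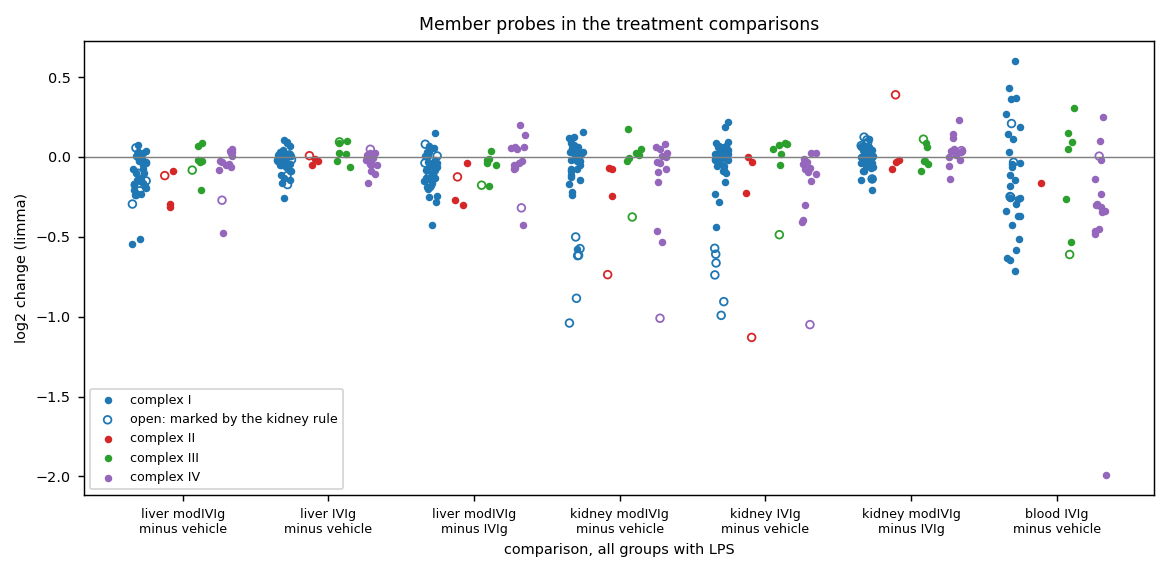
Log2 change of every kept member (1 point per probe, y axis) in each comparison of treatments within liver, kidney and blood (x axis). No member was called in any of them. The marked members lie below 0 in both kidney comparisons with vehicle.

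In kidney no member passed the test between treatments. ModIVIg against vehicle, IVIg against vehicle and modIVIg against IVIg called 0% of 11010 probes each (2.63%, 1.25% and 3.63% with an unadjusted p under 0.05) and 0 of 66 members, also 0 at an unadjusted p under 0.05. The 57 members without the mark had median changes of -0.005, -0.011 and -0.0003, and a median SE of 0.17, 0.17 and 0.16. The 9 marked members had medians of -0.62 and -0.74 against vehicle for modIVIg and IVIg, with a median SE of 1.75 in both. Vehicle has 2 arrays of replicates 1 and 2 and 1 of replicates 3 and 4, and the other groups have 2 of each, so the vehicle mean holds a smaller share of the low arrays. Among the members without the mark, the lowest statistics with modIVIg against vehicle belonged to Sdhb (ILMN_2769065) at -0.25 ± 0.17, Ndufc1 (ILMN_2983247) at -0.17 ± 0.16 and Ndufb10 at -0.58 ± 0.72 (SE, limma adjusted p = 0.999 for each). Ndufb10 lay just outside the mark, at -1.83 between the kidney replicates, so the uneven share of low arrays enters its change too.

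In blood, IVIg against vehicle called 0% of 4697 probes (1.09% unadjusted) and 0 of 55 members, and 1 member had an unadjusted p under 0.05. The members' median was -0.24 with 38 of 55 below 0, against -0.03 over all probes, and a member's median SE was 0.38. Cox6a2, the muscle isoform of subunit 6a of complex IV, had the lowest value. It read 5.74, 6.96 and 8.79 with vehicle, 4.92, 5.83 and 4.76 with IVIg, and 5.04 on the modIVIg array. The groups overlapped, and the change was -1.99 ± 0.68 (SE, limma adjusted p = 0.999).

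The unmarked probe of Ndufa5 (ILMN_1216007) read 6.81, 6.74 and 6.33 with vehicle in blood and 5.24, 6.23 and 6.25 with IVIg. Those groups did not overlap, by less than 0.1 on the log2 scale, and the change was -0.72 ± 0.38 (SE, limma adjusted p = 0.999). At the other end, Ndufv3 (ILMN_3008277), a small subunit near the NADH site, was at 0.60 ± 0.47 with an adjusted p of 0.999. The test of whether the modIVIg effect differs between liver and kidney called 0% of 12004 probes (3.64% unadjusted) and 0 of 67 members. Its lowest member was Ndufb7 at -0.65 ± 0.41 (SE, limma adjusted p = 0.999).

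The vehicle groups were then set against each other to describe the members by organ, after all 30 arrays had been normalised together. Levels of different probes are not compared, since probes differ in brightness. Kidney carried more signal than liver for most members. Of 67 members tested, 38 were called lower in liver than in kidney and 1 was called higher, where 42.3% of 12004 probes were called, 24.5% lower and 17.8% higher. Among the members 56.7% were called lower and 1.49% higher. The members' median difference was -0.70, against -0.01 over all probes, and called members numbered 20 of 41 in complex I, 2 of 4 in complex II, 6 of 7 in complex III and 11 of 15 in complex IV.

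In complex I, Ndufb8, an accessory subunit in the membrane arm, read 13.13, 12.94, 13.04 and 13.02 in liver and 14.71, 14.62 and 14.78 in kidney. The organs did not overlap, and the log2 difference was -1.67 ± 0.15 (SE, limma adjusted p = 6.58e-10). Ndufa12 read 9.57, 9.74, 9.38 and 9.54 in liver and 10.75, 10.80 and 11.23 in kidney, a difference of -1.37 ± 0.39 (limma adjusted p = 0.00634). Ndufs7, which holds the last iron-sulfur cluster before ubiquinone, was lower in liver (-1.28 ± 0.22), as was Ndufv1, which binds NADH and flavin (-1.11 ± 0.19).

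In complex II, Sdhc (ILMN_2594149), a membrane anchor, was lower in liver, at -1.12 ± 0.24. Sdhb (ILMN_2769065) was at -1.0 ± 0.35 (SE, limma adjusted p = 0.0247), and its other probe, ILMN_2769064, was at -0.63 and not called (adjusted p = 0.271). In complex III both probes of Uqcr10 were lower, at -1.35 and -1.31, and the core protein Uqcrc2 was at -1.15 ± 0.17. In complex IV, Cox5a and Cox5b, nuclear-encoded subunits next to the catalytic core, were both at -1.05. Apart from ILMN_2769064, all of these were called. After scaling to the 75th percentile the call of Sdhb ILMN_2769065 held, and those of Sdhc, Uqcr10, Uqcrc2, Cox5a and Cox5b were lost. The limma adjusted p-values were then 0.0603 for Sdhc, 0.164 and 0.21 for Uqcr10, 0.344 for Uqcrc2, 0.6 for Cox5a and 0.481 for Cox5b. The call of Ndufv1 was lost as well (limma adjusted p = 0.108).

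Cox7a1 had the largest difference among the 67 members. It read 6.65, 6.14, 6.38 and 6.58 in liver, where 2 of 4 vehicle arrays detected it, and 8.72, 9.52 and 9.26 in kidney. The difference was -2.73 ± 0.53 (SE, limma adjusted p = 1.44e-04). Cox7a1 is also known from brown fat, and the summed signal of 9 adipocyte probes was 610, 9390 and 4550 on the kidney vehicle arrays and 1310, 3740, 1880 and 1820 on the liver ones. Kidney vehicle 1 had the lowest of these sums and kidney vehicle 2 the highest, and Cox7a1 read 8.72 and 9.52 there. Ucp1, the uncoupling protein of brown fat, was also called lower in liver (-3.10 ± 0.94). The part of fat cells in the Cox7a1 difference was not tested.

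Cox7a2l, a Cox7a relative that takes part in the assembly of supercomplexes, was the only member called higher in liver. It read 9.70, 10.06, 9.95 and 9.87 in liver and 9.33, 9.41 and 9.49 in kidney, a difference of 0.48 ± 0.18 (SE, limma adjusted p = 0.0345). The groups did not overlap, but the call was lost when any 1 of liver vehicle 2, 3 and 4 or kidney vehicle 1, 2 and 3 was left out, with adjusted p-values of 0.0529 to 0.105. One of the 38 lower calls, Cox6b2 (ILMN_2764551) at -0.84, was detected on no vehicle array of either organ and gets no fold. It was kept through the blood arrays alone.

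The 9 marked members all lay above 0 in this comparison, at 0.13 to 1.26 with a median of 0.68 and a median SE of 1.35, and 0 were called. Without them the median of the other 58 members was -0.85, with the same counts of calls. The probes of Ndufa5 accordingly disagreed, at -0.97 on ILMN_1216007, which was called, and 0.74 on the marked ILMN_2691460.

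**Figure D3:**
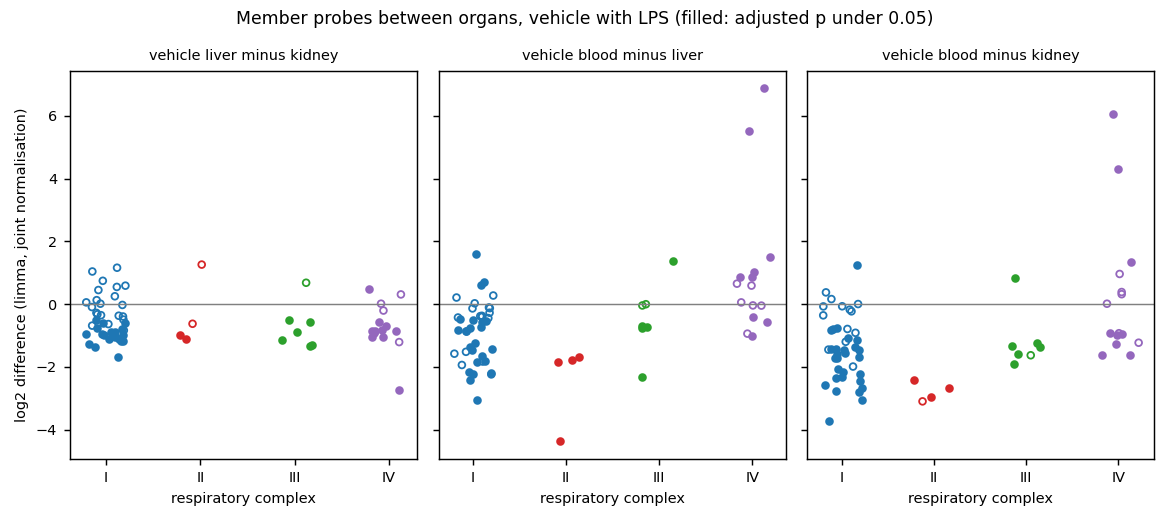
Log2 difference between the vehicle groups of each pair of organs (y axis) for every tested member, 1 point per probe, sorted by complex. Most members are lower in liver than in kidney and lower in blood than in either organ, and a few complex IV members stand high in blood.

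The liver and kidney counts rest on how the arrays were scaled. When each array was scaled to its 75th percentile without quantile normalisation, 9 members (13.4%) were called, 7 lower in liver and 2 higher, while 52.3% of all probes were called. The share of higher calls among called members went from 2.56% to 22.2%. The median over all probes moved from -0.01 to 0.21 and that of the members from -0.70 to -0.09. Members called under both scalings numbered 8, with Ndufb8 (-0.68 after 75th percentile scaling), Ndufa12 (-1.10), Ndufs7 (-0.77), Sdhb ILMN_2769065 (-0.65), Cox7a1 (-2.70) and Cox7a2l (0.70) among them. Of the members called under quantile normalisation 4 changed sign, namely Uqcr11 (-0.52 to 0.22), Cox4i1 (-0.86 to 0.14), Cox7c (-0.58 to 0.05) and Ndufa4 (-0.89 to 0.05). Relative to the median of all probes, 52 of 67 members lay lower in liver under the first scaling and 49 under the second.

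**Figure D4:**
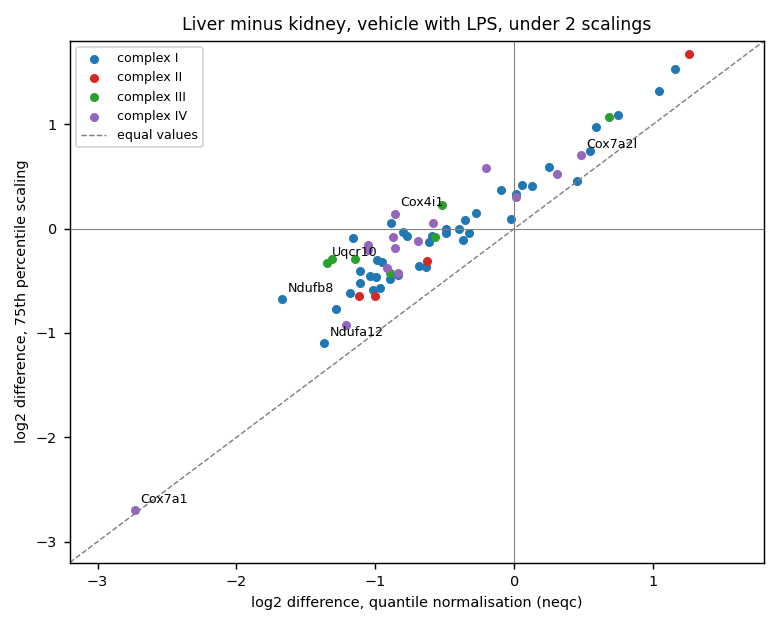
Log2 difference between liver and kidney vehicle arrays for each member after quantile normalisation (x axis) and after 75th percentile scaling (y axis), with lines at 0. All points sit above the diagonal, and Cox7a1 is low under both.

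Against liver, calls in blood were mostly lower in complexes I, II and III and went both ways in complex IV. Blood against liver called 42 of 67 members (62.7%, against 64.2% of all probes), 32 lower (38.9% of all probes were called lower) and 10 higher (25.3%). All 4 probes of complex II and 21 of 41 of complex I were called lower in blood, and 3 of complex I were called higher. Those 3 were Ndufa3, Ndufa1 (0.60 ± 0.14), a small membrane-arm subunit, and Ndufv3 ILMN_2688822, which was detected on no vehicle array of either organ and gets no fold. In complex III 4 of 7 were lower and 1 was higher. In complex IV, 6 of 15 were called higher and 3 lower, with a median of 0.59 against -0.76 in complex I. The 6 were both probes of Cox6a1, Cox6a2, Cox6b2, Cox7a1 and Cox7a2l, and the 3 were Cox4i1, Cox5b and Cox7c. Cox6b2 passed the detection filter through the blood arrays alone, so its place in the counts against liver and kidney is no test. The Cox7a1 and Cox7a2l calls against liver were lost in some alternatives, given below. Blood against kidney called 46 members (64% of all probes), 41 lower (40.4%) and 5 higher (23.6%), with a median of -1.36 against -0.50 over all probes. The share of members called in blood was thus close to that of all probes in both comparisons.

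Members called lower in blood than in both organs numbered 29 of 67, where 27.1% of all probes were. Sdhc (ILMN_2594149), detected on 2 of 3 blood vehicle arrays, read 9.23, 10.40 and 8.91 in blood, 11.47, 11.32, 11.35 and 11.29 in liver, and 12.34, 12.40 and 12.69 in kidney. Blood lay below both with no overlap, with differences of -1.85 ± 0.24 from liver and -2.96 ± 0.25 from kidney (SE, limma adjusted p = 1.82e-07 and 1.44e-10). Sdhb was lower than in liver, at -1.78 and -1.67 on its 2 kept probes, and than in kidney, at -2.41 and -2.67, and each probe was detected on 1 of 7 blood arrays. Sdhd was detected on no blood array, and liver was at least 3.18-fold brighter (limma adjusted p = 0.00924, and 0.104 with array quality weights, when the call was lost). Succinate dehydrogenase is shared by the respiratory chain and the TCA cycle.

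In complex I, Ndufb3, detected on 1 of 3 blood vehicle arrays, read 7.67, 9.28 and 4.92 in blood, 10.19, 10.30, 10.47 and 10.40 in liver, and 10.95, 11.10 and 11.02 in kidney. The blood arrays spread widely and lay below both organs, with fitted differences of -3.05 ± 0.57 from liver and -3.73 ± 0.61 from kidney (limma adjusted p = 4.35e-05 and 7.41e-06). Ndufc2, also detected on 1 of 3, was at -2.42 and -3.06. The blood means of Ndufb3 and Ndufc2 thus rest mostly on values not well above background. Ndufa9, which lies at the joint of the complex I arms and was detected on all 3, was at -1.81 and -2.80. Ndufb6 (ILMN_2914507) was detected on no blood vehicle array, and liver was at least 1.21-fold and kidney at least 1.23-fold brighter. For Ndufv3, the probes ILMN_3008277 (-0.85) and ILMN_2668977 (-0.38) both lay lower in blood than in liver, and the first was called.

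In complex III, Uqcrc2 was lower in blood, at -0.75 ± 0.17 against liver and -1.90 ± 0.18 against kidney, and the other core protein, Uqcrc1, was at -1.58 against kidney. Uqcrb, marked in kidney and detected on 2 of 3 blood vehicle arrays, was lower than in liver (-2.32 ± 0.98, SE, limma adjusted p = 0.0411), but the call was lost when any 1 of the 4 liver vehicle arrays, or blood vehicle 2 or 3, was left out (adjusted p = 0.0556 to 0.205). In complex IV, Cox7c was lower against both organs (-1.03 and -1.62), as was Cox5b (-0.56 and -1.61). After 75th percentile scaling the differences from liver were larger, at -2.83 for Sdhc, -2.88 for Ndufa9, -1.33 for Uqcrc2, -1.85 for Cox7c and -1.05 for Cox5b.

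Members called higher in blood than in both organs were 5 of 67, where 19.4% of all probes were. They were Cox6b2, Cox6a2, Cox7a2l, Ndufa3 and Uqcrh. Cox6b2 passed the detection filter through the blood arrays alone, so its place in this count is no test. Cox6b2, known as the testis isoform of subunit 6b of complex IV, stood out. ILMN_2764551 read 11.85, 10.96 and 12.19 on the blood vehicle arrays, 12.26, 11.40 and 11.91 with IVIg, and 11.25 on the modIVIg array. In the vehicle groups it read 4.78, 4.8, 4.77 and 4.77 in liver and 5.60, 5.77 and 5.48 in kidney. It was detected on all 7 blood arrays, on 0 of 12 liver arrays and on 2 of 11 kidney arrays.

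With all arrays quantile-normalised together, blood was at least 37.7-fold brighter in Cox6b2 than liver and at least 58-fold brighter than kidney. These bounds hold for that normalisation only. Cox6b2 passed the detection filter through the blood arrays alone, so this is a description and no p-value is given. In bead signal before any normalisation the blood vehicle arrays read 878.8, 370 and 618.9, the liver ones 116.6 to 134.6 and the kidney ones 158.1 to 185.7. The other Cox6b2 probe, ILMN_1229627, was detected on no array in any organ, so the result rests on 1 probe. The bead signals of ILMN_1229627 were 91.9 to 106.5 on the blood vehicle arrays and 128 to 162.9 on the liver ones.

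Cox6a2 read 9.03, 10.32 and 11.76 on the blood vehicle arrays, 6.97, 9.16 and 5.84 with IVIg, and 7.49 on the modIVIg array. In the vehicle groups it read 4.78, 4.95, 4.81 and 4.90 in liver and 6.32, 5.79 and 6.11 in kidney. After the same normalisation blood vehicle was at least 15.4-fold brighter than liver (limma adjusted p = 1.27e-08). The difference from kidney was 4.30 ± 0.65 (limma adjusted p = 2.39e-06). The bead signals were 165.5, 246 and 443.2 in blood and 245.5, 159.3 and 213.5 in kidney, so before normalisation these arrays overlapped. On the liver vehicle arrays they were 116.4 to 143.6. Of 11 skeletal and heart muscle probes, 0 were kept in blood and 8 were detected on no blood array. Their sums were 291, 279 and 363 on vehicle arrays 1 to 3, 270, 364 and 287 on IVIg arrays 1 to 3, and 282 on the modIVIg array. Vehicle 3 and IVIg 2 had the highest sums and also the highest Cox6a2 of their groups. The part of muscle RNA in the blood values of Cox6a2 was not tested.

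In liver, Cox6a2 was detected on 1 array, modIVIg 3, at 7.07 against a median of 4.92 over the 12 arrays. The summed muscle probes were also highest there, at 1270 against 411 to 490 on the other liver arrays. The part of muscle RNA in that value was not tested.

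The other 3 were broad subunits. Ndufa3 read 12.99, 13.04 and 13.55 in blood, 11.78, 11.30, 11.77 and 11.56 in liver, and 11.87, 11.81 and 12.19 in kidney. Blood was higher by 1.59 ± 0.19 against liver and 1.24 ± 0.21 against kidney (SE, limma adjusted p = 6.36e-08 and 9.35e-06). Uqcrh, the hinge protein of complex III, was higher by 1.39 ± 0.14 and 0.82 ± 0.15, and Cox7a2l by 0.87 ± 0.18 and 1.35 ± 0.19. Their signal before normalisation ran the other way. The bead signals of Ndufa3 were 1996.7 to 2913 in blood and 3098.4 to 4277.9 in liver, and those of Uqcrh were 1564.5 to 3518.6 and 3742.1 to 4468.4. Their higher rank in blood is therefore relative to the other probes of the same array. After 75th percentile scaling Ndufa3 (1.69 and 1.77) and Uqcrh (1.45 and 1.37) were still called higher in blood than in liver and kidney, and Cox7a2l was called against kidney (0.78) and not against liver (0.08, limma adjusted p = 0.792).

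**Figure D5:**
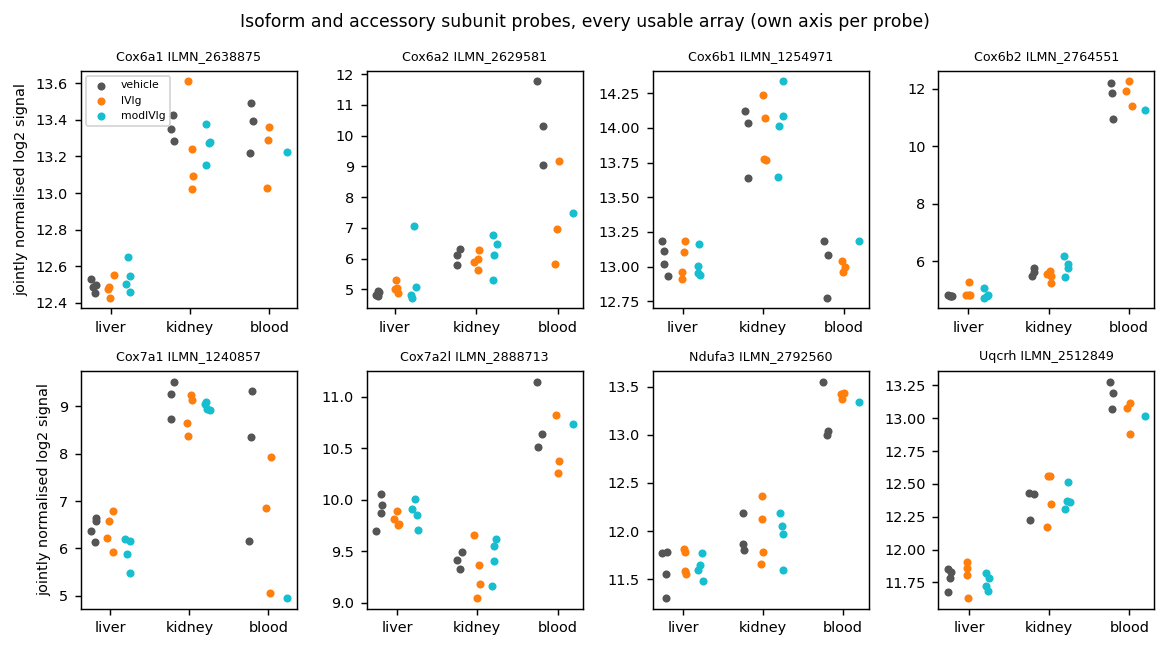
Log2 signal (all arrays normalised together, own y axis for each probe) of Cox6a1, Cox6a2, Cox6b1, Cox6b2, Cox7a1, Cox7a2l, Ndufa3 and Uqcrh, 1 point per array, by organ and treatment. Cox6b2 (ILMN_2764551) is high on all 7 blood arrays and far lower in liver and kidney, while Cox7a1 is high in kidney and varies in blood.

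The isoform pairs of complex IV showed different organ patterns. Cox6a1, the broadly expressed partner of Cox6a2, was called lower in liver than in kidney on both probes (-0.86 and -0.70). It was called higher in blood than in liver on both (0.88 and 1.01), but the vehicle bead signals before normalisation ran the other way. They were 2243.8 to 5184 in blood and 6632.9 to 7687.9 in liver on ILMN_2638875. On ILMN_2605400 they were 1722 to 3778.7 and 4283.1 to 5907.4. The higher rank of Cox6a1 in blood is therefore relative to the other probes of the same array. The liver to kidney calls of Cox6a1 and Cox6b1 were lost after 75th percentile scaling, at -0.19 and -0.12 for Cox6a1 and -0.38 and -0.08 for Cox6b1. Cox6b1, the partner of Cox6b2, was lower in liver than in kidney (-0.91 and -0.87) and lower in blood than in kidney (-0.96 and -0.92, the second -0.28 and not called after 75th percentile scaling), and its difference between blood and liver was -0.04 and -0.05, not called. Cox7a1 was called higher in blood than in liver by 1.5 ± 0.53 (SE, limma adjusted p = 0.0158), yet its blood vehicle arrays read 6.15, 8.34 and 9.32 and overlapped liver. The bead signals were 115.2 to 134.9 in blood and 184 to 217.8 in liver, and the call was lost with array quality weights (0.80, limma adjusted p = 0.228), without blood vehicle 2 (1.3, adjusted p = 0.0652) and without blood vehicle 3 (0.81, adjusted p = 0.2). Cox4i1, the main isoform of subunit 4, was called lower in blood than in liver and kidney (-0.41 and -1.27), and Cox4i2 was detected nowhere. The Cox4i1 call against kidney was lost after 75th percentile scaling (-0.25, limma adjusted p = 0.217), and that against liver was lost without liver vehicle 4 (-0.37, limma adjusted p = 0.0543) or blood vehicle 1 (-0.28, adjusted p = 0.128).

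Promoters were read for these members because nuclear-encoded subunits are known targets of NRF1 and of GABP (also called NRF2), the transcription factors that coordinate the respiratory chain genes. In the RefSeq table for build GRCm38.p6, 48 of 60 symbols matched. The 250 bases before the start were searched on both strands for the core of the NRF1 site, GCGCATGC or GCATGCGC, and of the GABP site, CCGGAAG or CTTCCGG. The NRF1 core was in 4 of 48 members (8.33%), against 2.56% of all 27025 genes and 3.67% of 13336 genes with a probe. The GABP core was in 8 of 48 (16.7%), against 7.83% and 11%. A match is a description of letters and not of a bound site.

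The sequences below each run from 5′ to 3′ on the gene's strand, with matches in capitals. They show both members of the Cox6b pair, which differed in blood, with Cox6a1, the 1 member that held both cores, and Uqcrh. Cox6a1 holds overlapping NRF1 cores on both strands 162 and 160 bases before the start and a GABP core 16 bases before it. The GABP core lies 28 bases before the start in Cox6b1 and 10 in Uqcrh, and Cox6b2 has neither core in these bases.
Cox6b1 (chr7:30626115-30626364, minus strand): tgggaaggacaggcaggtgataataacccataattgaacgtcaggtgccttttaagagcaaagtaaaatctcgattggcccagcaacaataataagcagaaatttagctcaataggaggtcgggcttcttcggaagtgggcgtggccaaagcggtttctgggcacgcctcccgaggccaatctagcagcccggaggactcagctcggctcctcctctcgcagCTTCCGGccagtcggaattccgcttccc
Cox6b2 (chr7:4753095-4753344, minus strand): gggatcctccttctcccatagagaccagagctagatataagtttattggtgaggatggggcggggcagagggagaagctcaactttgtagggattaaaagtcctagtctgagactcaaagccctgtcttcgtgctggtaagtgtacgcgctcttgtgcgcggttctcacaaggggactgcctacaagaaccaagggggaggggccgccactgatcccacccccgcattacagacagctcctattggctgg
Cox6a1 (chr5:115348959-115349208, minus strand): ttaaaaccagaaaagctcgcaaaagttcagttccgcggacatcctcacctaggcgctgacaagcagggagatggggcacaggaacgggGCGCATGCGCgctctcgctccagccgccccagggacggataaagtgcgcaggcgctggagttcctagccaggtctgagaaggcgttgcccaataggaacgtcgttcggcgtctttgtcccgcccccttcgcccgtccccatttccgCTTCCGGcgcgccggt
Uqcrh (chr4:116075071-116075320, minus strand): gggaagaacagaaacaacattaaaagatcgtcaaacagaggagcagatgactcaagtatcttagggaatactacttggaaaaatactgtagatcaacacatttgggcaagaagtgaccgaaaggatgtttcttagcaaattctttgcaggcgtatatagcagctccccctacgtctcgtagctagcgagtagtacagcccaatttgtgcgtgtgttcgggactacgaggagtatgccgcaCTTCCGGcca

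Other genes of mitochondrial energy metabolism were counted from lists. None of their probes was called in any treatment comparison. Between organs the counts hold for quantile normalisation only. The lists were not recomputed after 75th percentile scaling, which took the member calls between liver and kidney from 39 to 9. Over all probes, 24.5% were called lower in liver than in kidney and 17.8% higher. Between liver and kidney, 13 of 21 TCA cycle probes were called lower in liver and 0 higher (median -1.12), among them Idh3a (-3.53), Dlat of the pyruvate dehydrogenase complex (-3.51) and citrate synthase, Cs (-2.32). For ATP synthase it was 9 of 16 lower and 0 higher (median -0.57), with the inhibitor Atpif1 at -3.97 and the catalytic subunit Atp5b at -1.44. Of 6 probes for cytochrome c and the remaining subunits 3 were lower, Cox8b at -3.57, Cox8a at -1.37 and Cyc1 at -0.72. Assembly factors gave 15 of 39 lower and 6 higher, regulators of mitochondrial biogenesis 3 of 23 lower and 5 higher (Tfb1m, a mitochondrial ribosomal RNA methyltransferase, at 2.89), and antioxidant and uncoupling genes 3 of 10 lower and 1 higher.

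In blood against kidney, 20 of 21 TCA cycle probes were called lower and 0 higher, with a median of -3.01, and Suclg2 (-6.64) and fumarase, Fh1 (-6.36), lay lowest. Against liver it was 14 of 21 lower and 2 higher. In all these lists, probes over 3 lower on kidney replicates 3 and 4 than on 1 and 2 were not set apart. Among them are Dld (-6.41) and Idh2 (-3.51) of the TCA cycle, and 1 probe each of Cycs (-5.04) and Aifm1 (-5.02). Of all probes, 40.4% were called lower and 23.6% higher against kidney, and 38.9% and 25.3% against liver. ATP synthase had 10 of 16 lower and 2 higher against kidney, with Atp5l at 3.10, and 8 lower and 3 higher against liver, with Atpif1 at 4.36. Assembly factors had 24 of 39 lower and 3 higher against kidney, with Cox15, which makes heme a for complex IV, at -4.18. Regulators of biogenesis had 13 of 23 lower and 3 higher, with the coactivator Ppargc1a at -3.50. Antioxidant and uncoupling genes had 4 of 10 called in each direction, with Txnrd2, the mitochondrial thioredoxin reductase, higher at 3.28 and 3.21.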

How the data were processed

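Labelled RNA from the 3 tissues was hybridised to Illumina bead arrays, per the labels' protocols. The authors deposited a bead signal intensity, not normalised, and a detection p-value per probe and array, per the file headers. They also deposited log2 values, normalised organ by organ per the series text, by a method not given in the sources used here. GenomeStudio 1.9.0, lumi and limma are named without roles, per the submitters' processing notes. The platform annotation gave 1 symbol to 23978 probes and none to 1719.

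Groups and replicate numbers came from the sample titles. Background correction and quantile normalisation used neqc (offset 16, limma 3.58.1, R 4.3.3), within each organ or over all 30 usable arrays for comparisons across organs. A filter kept probes with a detection p under 0.01 on at least 4 liver, 3 kidney, 2 blood or, across organs, 3 arrays. Linear models (lmFit and eBayes) covered all kept probes and all groups, with Benjamini-Hochberg adjustment and a threshold of 0.05. Where a group did not detect a probe, the fold is a bound against the higher of that array's lowest detected signal and the probe's own. These signals are the normalised ones, so a bound between organs holds for the quantile normalisation only. The code was tested on simulated data.

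The members, lists and tests were chosen with earlier results of these data known. Named were the marked members with 3 on either side of the threshold, the 3 highest and 3 lowest statistics of each treatment comparison, the 3 largest called differences each way per complex and organ pair, the isoform pairs, the Sdh genes, genes whose probes disagree, and up to 4 called genes per list. Not every gene that this rule names is described. The brightest and dimmest probe per complex, also in the rule, were left out because levels of different probes are not comparable. Ndufb10 in liver, Ndufv1, and those that changed sign with the scaling were named after their values were seen.

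Same-numbered kidney arrays deviated together in 10 of 10 pairs (correlations of 0.617 to 0.854). In liver 6 of 12 pairs, and in blood 2 of 3, were over 0.1. The labels give no such pairing, and arrays of different numbers were not correlated. Whether the kidney correlations follow the replicate number or the step between kidney replicates was therefore not tested. Alternatives covered background correction, 75th percentile scaling, an offset of 50, the authors' values, detection filters, 1 probe per gene, array weights, the replicate block and each array left out.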

Additional observations from a re-analysis of the deposited data

Results flagged for a closer look

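The 62 probes given by the naming rule were looked at in every group of 4 arrays, all of them in liver or kidney. In 35 such groups no array detected the probe, and these were left out because levels below background have no order. Of the other 275 groups, 9 held an array far from the rest, and chance alone gives about 1 in 20.

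All 9 were liver groups, and the values are log2 signals normalised within liver. In complex I, Ndufa12 read 9.26 on modIVIg replicate 2 with the nearest array of its group at 9.45, and Ndufs4 (ILMN_1234521) read 11.04 on IVIg replicate 3 with the nearest at 11.32. Ndufb6 (ILMN_2914507) read 8.87 on vehicle replicate 1 with the nearest at 9.04. Sdhd of complex II read 10.11 on vehicle replicate 1 against 10.53, and Uqcrc1 of complex III read 11.31 on vehicle replicate 4 against 11.64. In complex IV, Cox6c read 13.50 on modIVIg replicate 2 against 13.80, Cox4i1 read 13.90 on IVIg replicate 2 against 14.06, and Cox7c read 12.63 on vehicle replicate 2 against 12.76. Cox6a2 read 7.04 on modIVIg replicate 3, the only liver array that detected it, against 5.14. None of these members was called in a comparison of treatments under the main settings.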

How the results depend on the processing

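Of the 8 counts of called members that concern treatment, 7 were 0 in every alternative run. With modIVIg against vehicle in liver the count went from 0 to 3 with array quality weights, while that of all probes went from 407 to 1306, and it was 0 to 1 with 1 array left out. Liver against kidney went from 39 to 9 calls after 75th percentile scaling (all probes from 5078 to 6278), gave 34 to 37 with 1 array left out, and reached 48 in the other alternatives. Blood against liver, with 42, gave 34 to 40 with 1 array left out and 35 to 52 otherwise. Blood against kidney, with 46, gave 46 to 50 and 38 to 56. The 75th percentile scaling moved the median of all probes from -0.32 to 0.22 for blood against liver and from -0.50 to 0.26 for blood against kidney. It alone turned the sign of a called member, in 5 cases among the members recomputed by name. These were Ndufa4 (0.0523), Cox4i1 (0.143), Uqcr11 (0.224) and Cox7c (0.0542) for liver against kidney and Ndufa13 (from -1.13 to 0.294) for blood against kidney, and the cause was not tested. For those members, 5165 values under an alternative stayed on their side of the threshold, 58 lost the call and 42 gained it, all but 4 of the gains between organs. The replicate block changed no treatment count (0 members) and gave 39, 43 and 48 calls between organs. Without the 3 blood arrays low in the marked members, chosen after seeing the data, blood against liver gave 40 calls, blood against kidney 47 and IVIg against vehicle 0. Leaving out the marked probes, also chosen then, gave 39, 40 and 46. The array weights reached their convergence tolerance in the liver fits and in no other. No slide block could be fitted, since slides are not named. Low signal limits blood most, where 8.09% to 18.7% of probes were detected.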

Other observations

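Blood modIVIg replicate 2, which the rule leaves out, detected 0.712% of all probes and 0 of 77 members, and its highest member bead signal was 89.1. Its authors' log2 column held values of 6.52 to 12.2 over the members. The rank correlation of that column with the bead signal of the same array was 0.005 over all probes, and with the authors' column of modIVIg replicate 1 it was 0.892 over the 77 members, which share the array design.

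In the authors' deposited blood values Ndufb9, Cox7b and Ndufs4 (ILMN_2663694) were also lower on vehicle 2, IVIg 2 and modIVIg 1 than on the other arrays. Ndufb9 read 8.17, 6.77 and 7.75 with vehicle, 8.12, 6.78 and 8.09 with IVIg, and 6.72 and 7.87 on the modIVIg columns.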
